A study of Tachysurus vachellii with 12 samples.

Results

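Ppm1k, TDH, SLC43A2 and Prodh are names of genes of amino acid breakdown and uptake. Under each name, 1 row of the assembled liver transcriptome was on average far more abundant in hypoxia pools than in control pools of a juvenile catfish. The names were selected on that same difference, from the size of these fold changes, so the rise is a description here and carries no test. All rows of the assembled transcriptome that carry any of these 4 names, in any case, were taken: 2 rows for Ppm1k, 1 for TDH, 3 for SLC43A2 and 2 for Prodh, which makes 8 of 34744 assembled components and 8 of the 15051 that carry a gene name. All 8 passed the filter on low counts, as did 25415 components in all. The row with the largest change under each name is called its leading row below. Among 5175 named components that reached 10 counts per 1000000 (CPM) in a group mean, the leading rows of Ppm1k, TDH, SLC43A2 and Prodh ranked 1, 2, 4 and 32 by log2 fold change. All 4 reached 10 CPM only in the hypoxia mean, so they entered this ranking through the group where they are high. The components next to these rows in the ranking were mfsd2ab at rank 3 (5.34) and EGLN3 at rank 5 (4.74), and around Prodh aldocb at rank 31 (3.11) and hif1an at rank 33 (3.03).

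The fish were juvenile Tachysurus vachellii, called Pelteobagrus vachelli in the series title, with no genotype or strain given. Control fish were taken at 6.8 mg/L oxygen, and the remaining fish of the same 3 aquaria were then brought down to 0.7 mg/L with nitrogen gas and held there for 4 h, so each group is a time point as well as an oxygen level. Every library pooled 5 livers. Each group has pools a, b and c (n = 3), and p-values measure the spread between such pools and not between fish. No label states that a letter marks an aquarium. The mRNA libraries held 32652402 to 35852327 estimated counts, so that 3 counts are worth 0.0829 to 0.0934 CPM. On the second principal component the letter c libraries of both groups lay away from the remaining 4 (-62.28 for the control, -60.96 for the hypoxia pool, 14.28 to 46.25 for the rest). The liver label was matched by its markers: 8 of 12 hepatocyte genes were found, with a summed level of 40400 to 46800 CPM in controls and 37000 to 39600 CPM in hypoxia. Every hypoxia sum lay below every control sum, but none of the 8 genes was called higher or lower in edgeR. The genes found were uneven in controls, from apoa1 at 20.6 to 24.1 CPM to hpx at 7500 to 14300 CPM. The sums therefore follow the abundant genes, such as hpx, which overlapped its controls at 6420 to 8880 CPM after hypoxia. Only apoa1 had groups without overlap, and it was higher after hypoxia (26.8 to 95.4 CPM). The lower sums thus do not show a fall of the listed genes as a whole. Of that list, alb, serpina1, ahsg and cps1 had no row by name. In whole liver, fewer cells of a type and less RNA per cell cannot be told apart.

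As background, the branched-chain amino acids leucine, isoleucine and valine lose their amino group to a transaminase and are then committed to breakdown by the branched-chain keto acid dehydrogenase of mitochondria. A kinase, Bckdk, switches this complex off by phosphorylation, and the phosphatase Ppm1k of the mitochondrial matrix switches it on again. TDH, threonine dehydrogenase, oxidises threonine in mitochondria, and its product is split to glycine and acetyl-CoA by Gcat; in humans TDH is a pseudogene. Prodh, proline dehydrogenase of the inner mitochondrial membrane, oxidises proline and hands its electrons to the respiratory chain, after which Aldh4a1 completes the conversion to glutamate. SLC43A2, also known as LAT4, is a plasma membrane carrier that lets branched-chain amino acids, phenylalanine and methionine pass down their gradient. In mammals the liver breaks down threonine and proline actively and has little of the branched-chain transaminases.

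Ppm1k was, per length, the most abundant of the 4 leading rows in every hypoxia pool. Its leading row (comp15401_c0, 1599 bases, gene ontology term mitochondrial matrix) stood at 2.8, 3.94 and 3.43 CPM in the control pools (here and below in the order a, b, c) and at 351, 224 and 90.1 CPM in the hypoxia pools. Every hypoxia pool was far above every control, and the lowest of them, hypoxia c, was 22.9 times the highest control. Group means were 3.39 ± 0.571 and 222 ± 131 CPM (mean ± SD, n = 3), a fitted log2 fold change of 6.03 (SE 0.51). The other row, PPM1K comp13144_c1 (1715 bases, annotated only as a protein phosphatase), stood at 3.24, 3.94 and 1.49 CPM in controls and at 6.97, 4.24 and 3.21 CPM in hypoxia. Its groups overlapped, since hypoxia c lay below control a and control b (log2 fold change 0.73, SE 0.39). With the counts of both rows summed, the log2 fold change under the name was 5.17.

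Around Ppm1k, the transaminase BCAT1 rose and the complex it feeds had no subunit past the test. BCAT1 (comp12654_c0), which moves the amino group of branched-chain amino acids to 2-oxoglutarate, stood at 15.7, 17.3 and 17.3 CPM in controls and at 200, 132 and 26.3 CPM in hypoxia. All 3 hypoxia pools were above the controls (log2 fold change 2.83, SE 0.59, adjusted p = 0.025, edgeR quasi-likelihood test with Benjamini-Hochberg adjustment over all components). A further BCAT1 row, comp17115_c1, averaged 4 ± 0.728 CPM in controls and 6.65 ± 0.628 CPM in hypoxia and did not pass (log2 fold change 0.73, SE 0.2, adjusted p = 0.071, and 0.039 with the letter as a block). The kinase BCKDK, the counterpart of Ppm1k, stood at 493, 541 and 488 CPM in controls and at 352, 375 and 300 CPM in hypoxia. The hypoxia pools of BCKDK were all below the controls, with a log2 fold change of -0.57 (SE 0.17) that did not pass in edgeR without the block (adjusted p = 0.083) and passed with it (adjusted p = 0.049).

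None of the subunits of the dehydrogenase itself passed the test in edgeR. BCKDHA and Bckdhb, which form its decarboxylase, had log2 fold changes of 0.13 (SE 0.33) and 0.09 (SE 0.24), with edgeR adjusted p = 0.86 for both. Dbt, the transacylase core, stood at 144, 163 and 124 CPM in controls and at 202, 153 and 106 CPM in hypoxia, groups that overlapped (log2 fold change 0.10, SE 0.24, adjusted p = 0.85, edgeR), and Dld, the shared flavoprotein, had 0.23 (adjusted p = 0.54). Within hypoxia, BCKDHA, Bckdhb and Dbt were highest in pool a and lowest in pool c, by 2.16, 1.91 and 1.9 times, while Dld was lowest in pool a. Control c was also the lowest control of each subunit. The controls of BCKDHA, Bckdhb and Dbt varied by 2.11, 1.31 and 1.31 times from highest to lowest. No row was named bcat2.

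Of 26 tested genes of branched-chain breakdown other than Ppm1k, 1 rose (BCAT1), none fell and 25 did not pass in edgeR, with a median log2 fold change of 0.00. Over all 25415 components, 4.56% rose and 1.80% fell (1159 and 458, or 1695 and 798 with the letter as a block), and the median was 0.00. The steps below the dehydrogenase were among the 25, from IVD, which oxidises the leucine product (log2 fold change 0.15, adjusted p = 0.71), to MUT, the mutase that delivers the isoleucine and valine carbon to the citric acid cycle (0.27, adjusted p = 0.53).

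Of the 3 enzymes, TDH had the lowest control level per length. It stood at 1.2, 1.06 and 1.06 CPM in controls for its only row (comp14836_c0, 2413 bases, annotated as threonine 3-dehydrogenase with the gene ontology term mitochondrion). Its levels after hypoxia were 100, 36.9 and 12.9 CPM. The controls were within 1.13 times of each other, while hypoxia a was 7.78 times hypoxia c, and hypoxia c was still 10.8 times the highest control. The means were 1.1 ± 0.0786 and 50.1 ± 45.2 CPM (n = 3), with a log2 fold change of 5.5 (SE 0.71). The control values rest on 34 to 41 counts per library. For control c, with 34 counts, the 95% exact Poisson interval was 23.5 to 47.5 counts, and it covers counting error only.

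No tested partner of TDH passed the test. GCAT, which cleaves the product of TDH to glycine, stood at 43.9, 44.7 and 44 CPM in controls and at 55.1, 46.6 and 36.3 CPM in hypoxia. The GCAT hypoxia pools lay on both sides of the controls (log2 fold change 0.06, SE 0.18, adjusted p = 0.89, edgeR). Gldc, the glycine decarboxylase, went from 139 ± 53.6 to 96.3 ± 15.5 CPM with overlapping groups (log2 fold change -0.53, adjusted p = 0.34). Of 14 tested genes of threonine and glycine breakdown other than TDH, none passed in either direction with edgeR, DESeq2 or limma-voom (median -0.02). Over all components tested 4.56% rose and 1.80% fell with edgeR, so no call among 14 genes is close to those shares. At an unadjusted edgeR p under 0.05 there was 1 higher (AGXT) and 1 lower (AMT, of glycine cleavage), with no share of all components at that threshold given here. With the letter as a block 1 of the 14, AGXT, which detoxifies glyoxylate to glycine, rose (log2 fold change 0.80, adjusted p = 0.2 without the block and 0.026 with it). Of all 25415 components, 1695 rose and 798 fell under the block. No row was named sds, the serine and threonine dehydratase that competes for threonine. A row named SDSL, annotated as L-serine dehydratase, averaged 7.02 ± 0.809 CPM in controls and 5.75 ± 0.508 CPM in hypoxia. Its hypoxia pools were all below the controls, and it did not pass (log2 fold change -0.29, adjusted p = 0.39, edgeR).

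Prodh showed the smallest separation of the leading rows. Its leading row (comp18719_c1, summed from 2 transcripts, with an effective length of 1761.33 bases and gene ontology terms of the mitochondrial inner membrane and matrix) stood at 7.48, 5.57 and 7.92 CPM in controls and at 107, 52.8 and 13.4 CPM in hypoxia. Hypoxia a and hypoxia b were well above the controls, and hypoxia c was 1.69 times the highest control. The means were 6.99 ± 1.25 and 57.6 ± 46.8 CPM (n = 3), with a log2 fold change of 3.04 (SE 0.61). The call of this row was lost with limma-voom. PRODH comp17952_c1 (812 bases) stood at 0.609, 0.55 and 0.901 CPM in controls and at 1.81, 1.71 and 1.66 CPM in hypoxia, from 18 to 29 and 56 to 62 counts per library. Its hypoxia pools were nearly equal and all above the controls (log2 fold change 1.33, SE 0.30), so the 2 rows under this name differed in how their hypoxia pools were spread.

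Among the genes that meet proline at glutamate, OAT rose. OAT, ornithine aminotransferase, which makes the same intermediate as Prodh from ornithine, stood at 32.4, 29.9 and 42.7 CPM in controls and at 72, 72.6 and 49 CPM in hypoxia (log2 fold change 0.88, SE 0.22, adjusted p = 0.046, edgeR). Its lowest hypoxia pool was again c, above the highest control. Aldh4a1, the enzyme after Prodh, stood at 140, 143 and 164 CPM in controls and at 258, 233 and 139 CPM in hypoxia. Only hypoxia a and hypoxia b exceeded the aldh4a1 controls, and the test was not passed (log2 fold change 0.49, SE 0.24, adjusted p = 0.26, edgeR).

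Of 13 tested genes of proline and glutamate metabolism other than Prodh, 1 rose, none fell and 12 did not pass with edgeR (median log2 fold change 0.17). Of all components tested, 4.56% rose and 1.80% fell. With the letter as a block 3 of the 13 rose, among them GOT1, the cytosolic aspartate aminotransferase, which differed by 1.24 on the log2 scale (adjusted p = 0.11 without the block, 0.02 with it, edgeR). Under the block 1695 of all 25415 components rose and 798 fell. ALDH18A1, which starts the synthesis of proline from glutamate, had a log2 fold change of 0.07 (SE 0.19) and did not pass. No row was named prodh2.

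**Figure D1:**
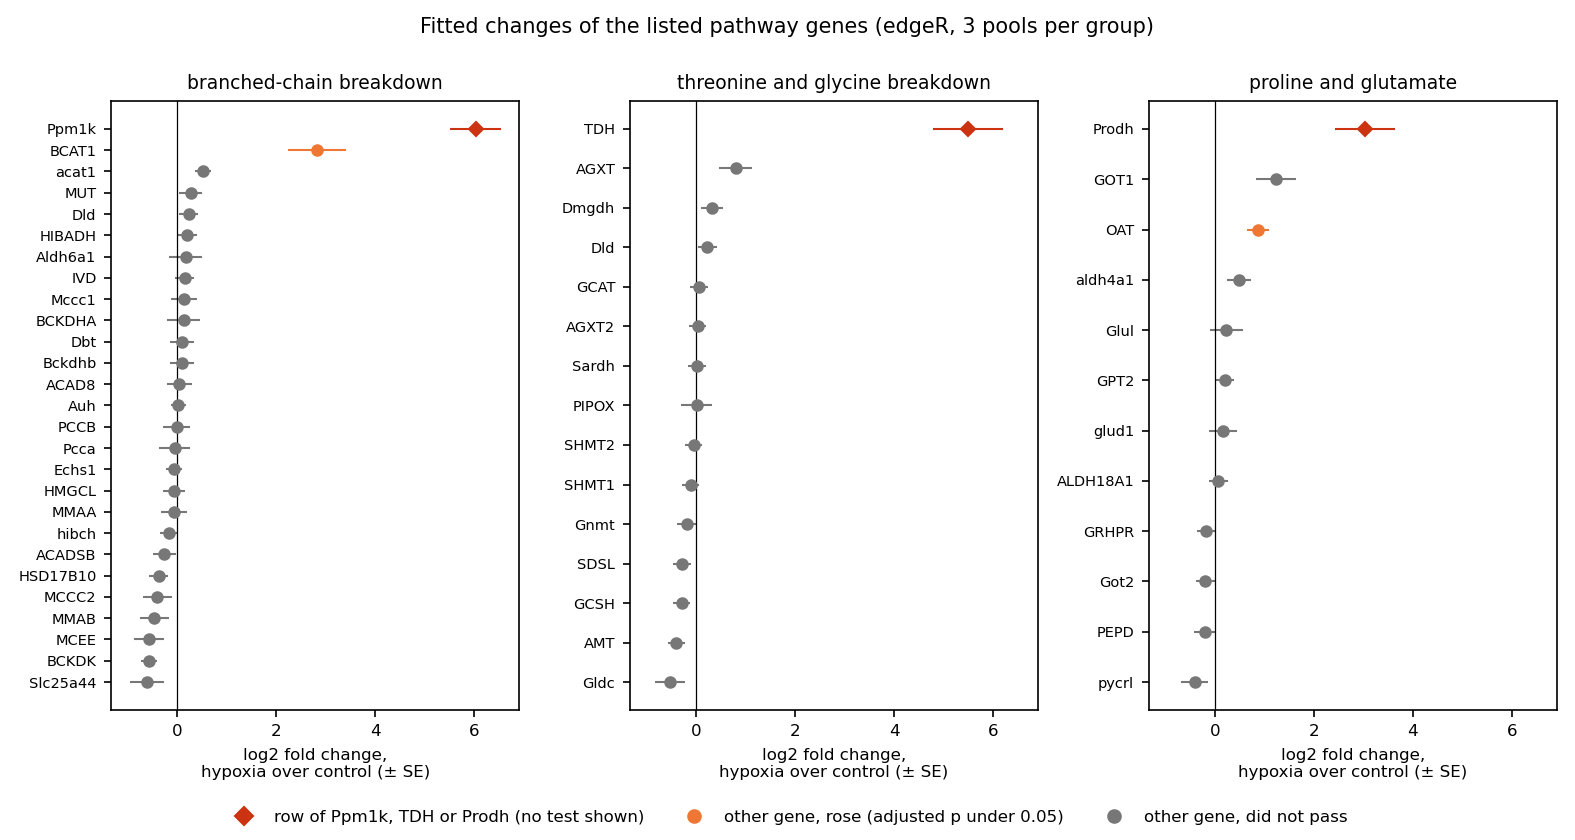
Fitted log2 fold change (hypoxia over control, edgeR, bars ± SE, 3 pools per group) of tested genes of the branched-chain, threonine and glycine, and proline and glutamate lists, by panel; some genes of the last list are not drawn. Ppm1k, TDH and Prodh (6.03, 5.5 and 3.04) were selected on this value and stand to the right of the other genes drawn, of which BCAT1 (2.83) and OAT (0.88) passed the test.

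The 3 rows named for the carrier SLC43A2 differed from each other. The leading row (SLC43A2 comp15220_c1, 2017 bases) stood at 0.742, 0.788 and 0.654 CPM in controls and at 38.2, 19 and 5.81 CPM in hypoxia. Again every hypoxia pool was above every control, hypoxia c by 7.37 times the highest (0.728 ± 0.068 and 21 ± 16.3 CPM, n = 3, log2 fold change 4.85, SE 0.64). Its annotation names member 1 of the same carrier family, and its orthology entry differs from that of the other rows, so whether it encodes SLC43A2 or SLC43A1 is not settled by the deposited annotation. Its controls rest on 21 to 26 counts, and control c, with 21, had a 95% exact Poisson interval of 13 to 32.1 counts.

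The row slc43a2 comp7463_c0 (3213 bases, annotated as member 2) carried most of the reads of the name in every pool. It stood at 48.8, 49.8 and 40.6 CPM in controls and at 57.3, 54.6 and 50.4 CPM in hypoxia. The groups did not overlap, but hypoxia c was only 1.01 times the highest control (log2 fold change 0.22, SE 0.16). The third row, slc43a2 comp10242_c1 (1069 bases, also member 2), stood at 2.01, 2.04 and 0.592 CPM in controls and at 0.877, 0.608 and 1.5 CPM in hypoxia. Its groups overlapped (log2 fold change -0.64, SE 0.50), and both letter c pools went against the other pools of their group. Without the 2 letter c pools its log2 fold change was -1.45 and it was called lower. Summed over the 3 rows, the name had a log2 fold change of 0.64.

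Among carriers of neutral amino acids of other families, 3 rose. Slc38a2, a sodium-coupled importer of small neutral amino acids, stood at 41.5, 41.6 and 22.4 CPM in controls and at 557, 209 and 62.1 CPM in hypoxia (log2 fold change 2.97, SE 0.67, adjusted p = 0.034, edgeR). SLC38A4, its liver relative, averaged 329 ± 64.9 CPM in controls and 1720 ± 967 CPM in hypoxia (rise of 2.39 on the log2 scale, SE 0.39, adjusted p = 0.009) and SLC1A5, a glutamine and neutral amino acid exchanger, 4.11 ± 0.407 and 11.6 ± 3.3 CPM (1.49, adjusted p = 0.0073). SLC7A5, the exchanger of branched-chain amino acids known as LAT1, stood at 0.561 to 1.73 CPM in controls and 1.12 to 1.85 CPM in hypoxia and did not pass (log2 fold change 0.31, adjusted p = 0.71, edgeR). Its heavy chain SLC3A2 (comp18835_c0) had -0.82 (adjusted p = 0.2, and 0.03 with the letter as a block, lower), and a further row, Slc3a2 comp11480_c0, 0.36 (adjusted p = 0.57). SLC43A3, a carrier of purine bases in mammals, had 0.13 (adjusted p = 0.78), and the row named SLC43A1 had too few counts to be tested, at 0.0302 to 0.249 CPM. Of 19 tested carriers other than slc43a2, 3 rose, none fell and 16 did not pass the test, with a median of 0.18. Of all components tested, 4.56% rose and 1.80% fell. Among the carriers limma-voom called 2 higher, where it called 963 of all 25415 components higher.

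**Figure D2:**
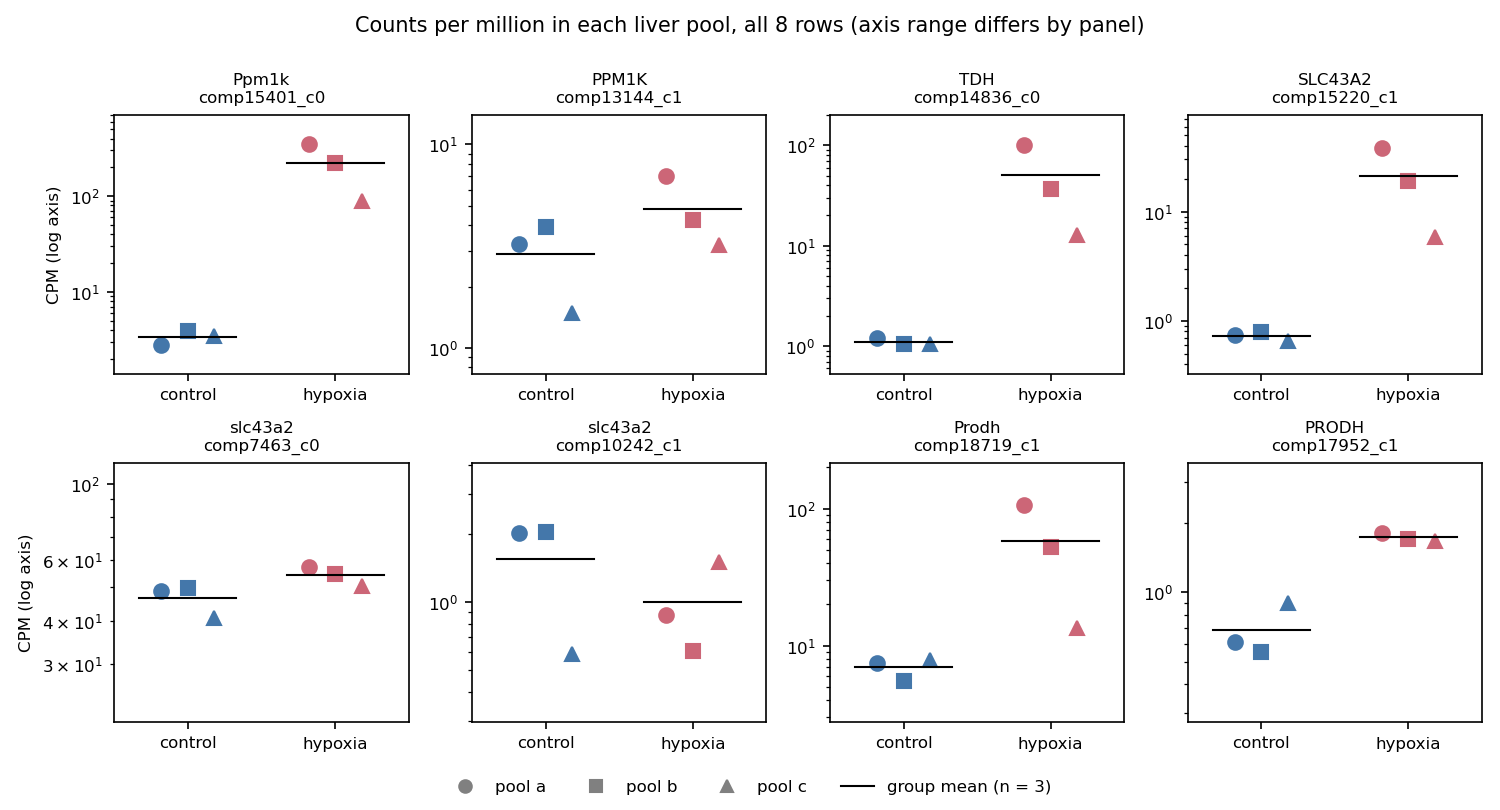
CPM (log axis, range set per panel) of the 8 rows in each control and hypoxia pool, with the marker showing the pool letter and the line the group mean (n = 3). In the leading rows of Ppm1k, TDH, SLC43A2 and Prodh the hypoxia pools fall in the order a, b, c above the controls, in PRODH comp17952_c1 they lie together (1.66 to 1.81 CPM), and in PPM1K comp13144_c1 and slc43a2 comp10242_c1 the groups overlap.

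The edgeR test called 5 of the 8 rows higher, the leading 4 and PRODH comp17952_c1, where 4.56% of all components tested were. The calls of the leading 4 follow from how the names were selected. PRODH comp17952_c1 was taken because it shares the name of a leading row, and its call is likewise given as a description only. The 3 hypoxia pools lay above the 3 controls in 6 of the 8 rows and in 14.6% of all components tested. When 1 of the letter a or letter b libraries was left out, of either group, 3 rows were still called, Ppm1k, TDH and SLC43A2, and both Prodh rows lost the call. For the leading rows the separation and the kept calls also follow from the selection, and they are a description only. In the table the authors deposited, Ppm1k comp15401_c0 is marked significant and the other 7 rows are not, among 961 components so marked. In the same deposited table the column named FDR equals the p-value in all 34744 components.

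Compared per length, in the authors' reads per kilobase and per 1000000 reads (RPKM), the order of the rows differed between groups. In controls slc43a2 comp7463_c0 was highest (13.7 ± 2.03 RPKM, n = 3), followed by Prodh comp18719_c1 (5.92 ± 1.47), Ppm1k comp15401_c0 (2.05 ± 0.28), PPM1K comp13144_c1 (1.65 ± 0.735), slc43a2 comp10242_c1 (1.46 ± 0.811), PRODH comp17952_c1 (0.857 ± 0.204), TDH (0.437 ± 0.0551) and SLC43A2 comp15220_c1 (0.35 ± 0.0436). The control pools of Ppm1k comp15401_c0, PPM1K comp13144_c1 and slc43a2 comp10242_c1 overlapped, those of PRODH comp17952_c1 overlapped PPM1K comp13144_c1 and slc43a2 comp10242_c1, and the lowest TDH pool (0.4 RPKM) lay just above the highest pool of SLC43A2 comp15220_c1 (0.38 RPKM). The remaining neighbours did not overlap.

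In hypoxia Ppm1k comp15401_c0 was highest, at 216.98, 140.25 and 57.89 RPKM in pools a, b and c. Prodh comp18719_c1 (36.78, 21.13 and 7.78 RPKM), TDH (40.46, 15.07 and 5.41 RPKM), slc43a2 comp7463_c0 (17.18, 16.59 and 15.74 RPKM) and SLC43A2 comp15220_c1 (18.52, 9.33 and 2.93 RPKM) followed with overlapping ranges. Which of these was second depended on the pool: TDH in hypoxia a, Prodh in hypoxia b and slc43a2 comp7463_c0 in hypoxia c. The remaining 3 rows stayed at 4 RPKM or below in every pool.

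**Figure D3:**
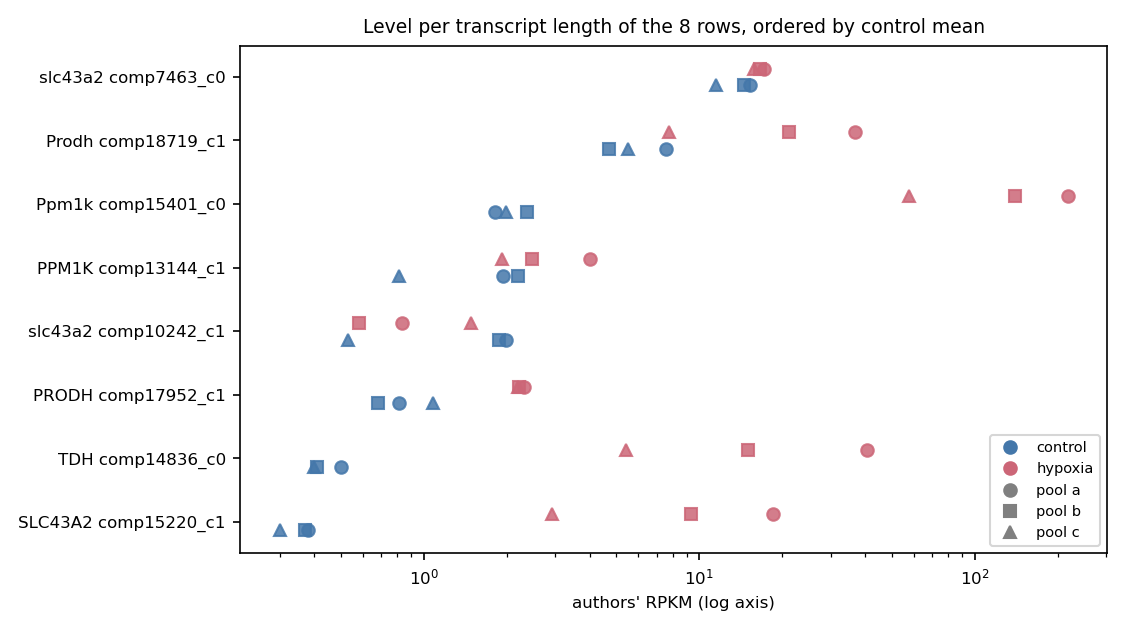
The authors' RPKM (log axis) of each row in each pool, rows ordered by control mean, with colour for the group and marker shape for the pool letter. TDH and SLC43A2 comp15220_c1 are lowest in controls (0.437 and 0.35 RPKM on average) and reach 40.46 and 18.52 RPKM in hypoxia a.

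In CPM the hypoxia pools were graded in the same order in all 4 leading rows. Hypoxia a was 3.9 times hypoxia c for Ppm1k, 7.78 times for TDH, 6.58 times for SLC43A2 and 7.98 times for Prodh, with hypoxia b between. Set against the control mean, Ppm1k was 104, 66.1 and 26.6 times higher in hypoxia a, b and c, TDH 90.9, 33.4 and 11.7 times, SLC43A2 52.5, 26.1 and 7.98 times and Prodh 15.2, 7.56 and 1.91 times. The controls of the same rows varied by 1.13 to 1.42 times from highest to lowest. PPM1K comp13144_c1 had the same order (2.17 times), while the ratios of slc43a2 comp7463_c0 and PRODH comp17952_c1 were 1.14 and 1.09. Per length Prodh comp18719_c1 was less graded than in CPM, from 36.78 RPKM in hypoxia a to 7.78 RPKM in hypoxia c. Its rise was also smaller per length, from a control mean of 5.92 RPKM to a hypoxia mean of 21.9 RPKM.

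Over all components tested, the median ratio of hypoxia a to hypoxia c was 0.99 (5th to 95th percentile 0.337 to 2.23), 7.29% reached a ratio of 2, and 5.95% did so in the order a, b, c, among them 5 of the 8 rows. Among the 1159 components that rose, 13.6% were so graded. The fold changes of the leading rows moved with the pools accordingly. Without hypoxia a the log2 fold changes of Ppm1k, TDH, SLC43A2 and Prodh were 5.52, 4.47, 4.08 and 2.23, and without hypoxia c they were 6.39, 5.94, 5.28 and 3.50. Without both letter c pools they were 6.42, 5.92, 5.23 and 3.61.

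Marker genes of other cell types were compared with this grading. The summed exocrine pancreas markers (6 of 11 found) stood at 4850, 1550 and 93.9 CPM in controls and at 7380, 2270 and 1820 CPM in hypoxia, the same order as the leading rows. Their sum in control a was above that in hypoxia b and hypoxia c. The erythroid markers (7 of 10 found) ran the other way in hypoxia, at 597, 1520 and 2510 CPM, against 1270 to 2580 CPM in controls. The part of either in the grading was not tested. Leukocyte and macrophage markers (6 of 11 found) summed to 32.9 to 43.3 CPM in controls and 28.3 to 45.7 CPM in hypoxia, muscle markers (8 of 9) to 23.6 to 51.6 and 23.7 to 34.6 CPM, and those of endothelium, stellate cells and bile duct (10 of 12) to 1520 to 2220 and 1600 to 1930 CPM. Of 8 kidney tubule markers 1 was found, at 3.74 to 11.3 CPM in controls and 4.29 to 8.89 CPM in hypoxia. None of the markers found was at 0 in every library.

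**Figure D4:**
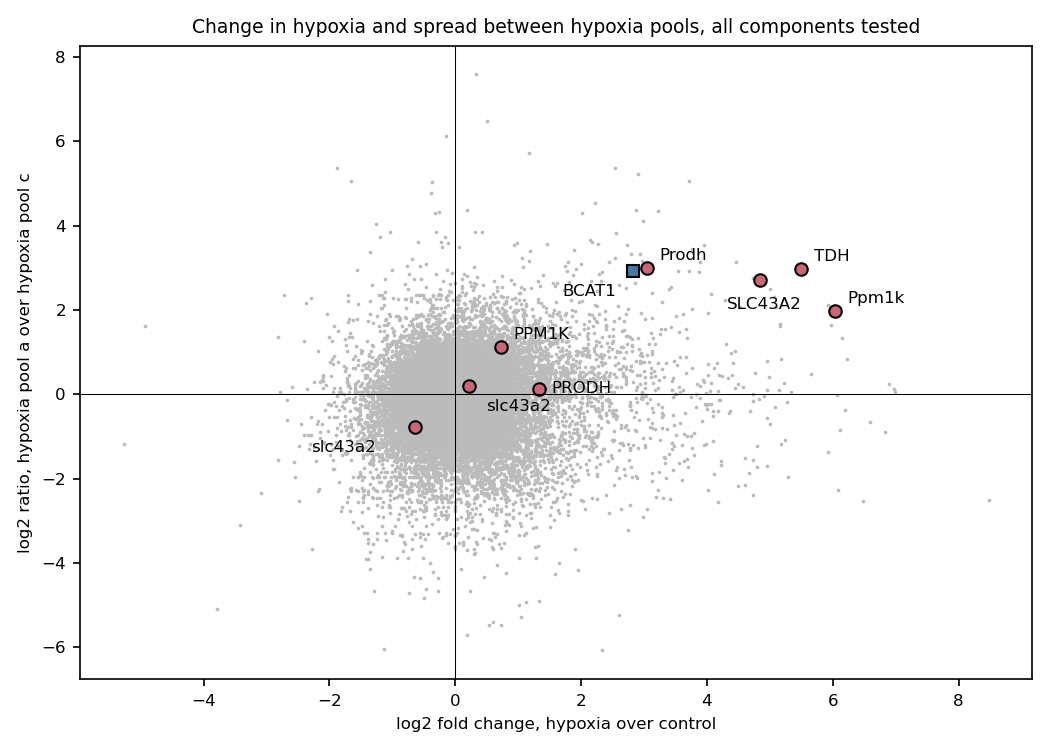
Each grey point is a tested component, by its fitted log2 fold change (hypoxia over control) and the log2 ratio of hypoxia a to hypoxia c; 25342 are drawn and 73 with 0 in either pool are not. Red circles are the 8 rows and the blue square is BCAT1 comp12654_c0. The leading rows lie at upper right, with ratios of 3.9 to 7.98 on the linear scale, and PRODH comp17952_c1 lies near the line of no difference between pools.

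The make-up of the 4 leading rows is given as a description, since their shares follow from the fold changes on which they were selected. Their summed CPM was 12.2, 11.4 and 13.1 in control a, b and c and 597, 333 and 122 in hypoxia a, b and c. Prodh made up 49% to 61.2% of the sum in controls and 10.9% to 17.9% in hypoxia, and Ppm1k 22.9% to 34.7% and then 58.9% to 73.7%, without overlap between groups. SLC43A2 kept a share of 5.01% to 6.94% in controls and 4.75% to 6.4% in hypoxia. Since these are shares of CPM and not of levels per length, they describe reads and not molecules.

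Likeness of profile was measured as the root mean square difference of centred log2 CPM over the 6 libraries, among named components that reached 10 CPM in any library. TDH and SLC43A2 comp15220_c1 were each other's nearest component (0.34), and Ppm1k was closest to TDH (0.55). The nearest 3 components of SLC43A2 also held nr4a1 (0.41), an immediate early nuclear receptor that was close to TDH as well (0.56). For Ppm1k, the component between TDH and SLC43A2 (0.77) was mfsd2ab (0.62), named for a lysophospholipid carrier but annotated as an FK506-binding protein, which had no grading (107, 105 and 103 CPM across the hypoxia pools). Prodh comp18719_c1 was closest to BCAT1 (0.24), then to PCYT2 (0.34), of phosphatidylethanolamine synthesis, and Snx18 (0.35), a sorting nexin. The largest difference among the 4 leading rows was that of Ppm1k and Prodh (1.66). With 6 libraries in 2 groups, likeness is set largely by the size of the rise and by the grading.

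The minor rows resembled other components. Of those named here, 3 carry an annotation that differs from the name: PLS3 (protein phosphatase 3, regulatory subunit), MGA (T-box protein 6) and BCL9 (bromodomain-containing protein 4). PPM1K comp13144_c1 was nearest to AGXT (0.10), plxna3 (0.11) and SCAP (0.16), slc43a2 comp7463_c0 to PYGL (0.03), PLS3 (0.04) and Ppfibp1 (0.04), slc43a2 comp10242_c1 to slc22a6 (0.12), nrp1a (0.32) and Casc4 (0.34), and PRODH comp17952_c1 to GRAMD3 (0.14), MGA (0.15) and BCL9 (0.15).

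Breakdown of other amino acids and the response to amino acid shortage were read from the same fit. Of 27 tested genes for breakdown of aromatic and sulfur amino acids, histidine and lysine, 1 rose, none fell and 26 did not pass with edgeR (median -0.01). These counts are near the shares over all components, of which 4.56% rose and 1.80% fell. The riser was bhmt, which remakes methionine from homocysteine with betaine, at 446, 509 and 412 CPM in controls and 3150, 2310 and 947 CPM in hypoxia (log2 fold change 2.23, SE 0.38, adjusted p = 0.011). With the letter as a block 3 of the 27 were called, tdo2b of tryptophan breakdown also rising (adjusted p = 0.023) and cdo1 of cysteine breakdown falling (adjusted p = 0.034). Under the block 1695 of all 25415 components rose and 798 fell.

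In the amino acid response, 12 of 15 tested genes did not pass in either direction (median 0.33) and 3 rose, beside 4.56% of all components. They were TRIB3, a pseudokinase induced by the stress factor ATF4 (control mean 7.88 ± 0.372 CPM, hypoxia mean 25.7 ± 13 CPM, log2 fold change 1.70, adjusted p = 0.016), ddit4, an inhibitor of the growth kinase mTORC1 (12.3 ± 3.26 and 39.8 ± 18.5 CPM, 1.70, adjusted p = 0.02), and EIF2AK4, the kinase GCN2 that senses uncharged tRNA (9.56 ± 1.19 and 21.6 ± 8.43 CPM, 1.17, adjusted p = 0.04, edgeR). Fitted with the letter as a block, 4 of the 15 rose, with CEBPG added (adjusted p = 0.043, against 0.094 without the block, edgeR). In that fit 1695 of all 25415 components rose and 798 fell. Among the genes of this list that did not pass in edgeR without the block were atf4 itself (log2 fold change 0.23, adjusted p = 0.44) and DDIT3 (0.5, adjusted p = 0.09). ASNS (-0.31, adjusted p = 0.6) and chac1 (-1.09, adjusted p = 0.3) did not pass either. With all 6 libraries and no block, no listed gene fell in these 6 lists with edgeR or limma-voom. DESeq2 called 1 branched-chain gene and 1 gene of other amino acid breakdown lower, where 797 of 25407 components fell. At an unadjusted edgeR p under 0.05 the lower genes numbered 1 in the branched-chain list, 1 among the carriers, 1 in the threonine and glycine list and 3 in other amino acid breakdown. The higher genes numbered 2, 3, 1 and 4 in the same lists, 3 in proline and glutamate and 6 in the amino acid response. Members were left out of these counts. The share of all components at that threshold is not given here, so these counts have no background. Hypoxia a was at least 2 times hypoxia c in 6 of the 15 amino acid response genes, in 6 of the 26 branched-chain genes, in 4 of the 13 proline and glutamate genes, in 4 of the 19 carriers, in 5 of the 27 other breakdown genes and in none of the 14 threonine and glycine genes, beside 7.29% of all components. All 9 listed genes named as rising lost the call without control a and without control b, with edgeR adjusted p of 0.051 to 0.2. Their log2 fold changes in those fits were 0.77 to 3.10 and all positive. BCAT1, slc38a2, OAT and EIF2AK4 also lost it without hypoxia a and without hypoxia b, and BCAT1, slc38a2 and EIF2AK4 without control c. These 4 genes did not pass with limma-voom either (adjusted p = 0.064, 0.066, 0.05 and 0.058 for BCAT1, slc38a2, OAT and EIF2AK4, that of OAT being just above the threshold before rounding), nor did OAT and EIF2AK4 in edgeR without the filter on low counts.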

How the data were processed

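Liver mRNA of 6 libraries was analysed, 3 control and 3 hypoxia pools of 5 livers; the small RNA libraries of the same series were not used. Per the labels' protocols, the mRNA reads were trimmed and assembled without a genome, and reads were assigned to the assembled components; per the submitters' processing notes the tools include RSEM 1.2.3 and DESeq. Other steps are not given in the sources used here. The deposited table holds estimated counts (expected counts, with fractions), the authors' RPKM per component, an effective length (other unit), and the authors' log2 fold change, p-value and FDR, which were used only for the significance marks. Columns were assigned by the codes and letters in their names, and 0 value columns were left unassigned.

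Counts were rounded and tested in edgeR 4.0.16 (quasi-likelihood test, TMM, filterByExpr, two-sided, Benjamini-Hochberg over all components tested, adjusted p under 0.05) in R 4.3.3. The SE was derived from the test, as the size of the log2 fold change over the root of F. CPM uses TMM-scaled library sizes, and log2 CPM a prior count of 2. The alternatives used DESeq2 1.42.0 and limma 3.58.1. The code was tested on simulated data. Figures and summaries used pandas 2.3.3 and matplotlib 3.10.9 (Python 3.11.15). Depth limits precision at low counts, and Poisson intervals cover counting error only.

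The members, 6 gene lists and 7 marker lists were chosen with earlier results of these data known. Listed genes were matched by symbol, and the component with the most counts stood for a symbol. By rule the text names all rows of the 4 names, at most 6 listed genes per list that passed, 18 partners whatever their values, and the 3 components most like each row. IVD, MUT, AGXT, SDSL, GOT1, ALDH18A1, tdo2b, cdo1, CEBPG, AMT, atf4, DDIT3, ASNS and chac1 were added after their values were seen. A few further genes are counted but not reported here. Gene rows of the same name can be paralogs or fragments, and reads can be split between them; their sequences were not used here. Counts were not stated to use strand.

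Letters were checked as pairs on deviations from group means across genes: same-letter correlations were 0.15, 0.19 and 0.31 for a, b and c, and those of different letters -0.29 to 0.18. Control b with hypoxia a (0.18) was above the letter a pair (0.15) and near the letter b pair (0.19), so these values set only letter c apart. An alternative with the letter as replicate block was fitted and is shown beside a result where it changed the call. The pairing comes from these data, since no label ties a letter to an aquarium.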

Additional observations from a re-analysis of the deposited data

How the results depend on the processing

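The rows of Ppm1k, TDH, SLC43A2 and Prodh kept their direction under every alternative run, with log2 fold changes of 5.17 to 6.42 for Ppm1k comp15401_c0, 4.47 to 5.94 for TDH, 4.08 to 5.28 for SLC43A2 comp15220_c1 and 2.23 to 3.61 for Prodh comp18719_c1; the lowest Ppm1k value, 5.17, came from summing both rows of the name. The leading rows were selected on this contrast and every alternative reuses the same libraries, so their kept direction follows largely from the selection. The minor rows ranged over 0.35 to 1.01 (PPM1K), 1.18 to 1.60 (PRODH), 0.13 to 0.64 (slc43a2 comp7463_c0) and -1.45 to -0.38 (slc43a2 comp10242_c1). Summing all rows named SLC43A2 gave 0.64. That value is counted in the range of slc43a2 comp7463_c0, so the range of SLC43A2 comp15220_c1 does not include the summing. Of the 8 rows 5 were called, 3 to 5 when a library was left out, and 6 without both letter c pools. The count of all components called was 1617, with 2456 by DESeq2, 1357 by limma-voom and 1400 of 34730 without a filter on low counts. It was 2493 with the replicate block, 3816 without both letter c pools and 383 to 1855 when a library was left out. Members included, 2 branched-chain genes were called, with 1 by limma-voom, 3 under the block and 1 to 2 with a library left out. The threonine and glycine list had 1 call, with 2 under the block, 4 without the letter c pools and 1 to 2 with a library left out. The proline and glutamate list had 2, with 4 by DESeq2, 1 by limma-voom, 1 without a filter, 4 under the block, 5 without the letter c pools, 4 with every component of a symbol and 0 to 4 with a library left out. The carriers had 3, with 5 over every component, 4 under the block and 0 to 3 with a library left out. Other amino acid breakdown had 1, with 3 by DESeq2, 3 under the block, 8 without the letter c pools and 0 to 4 with a library left out. The amino acid response had 3, with 5 by DESeq2, 4 under the block, 7 without the letter c pools and 0 to 4 with a library left out. The block changed no call among the 8 rows; among the components standing for listed genes the added calls included BCKDK, AGXT, GOT1, SLC3A2, tdo2b, cdo1 and CEBPG, and none was removed. The cause of these shifts was not tested; leaving out a library also leaves fewer samples. Depth limits the control values of TDH and SLC43A2, which rest on 21 to 41 counts per library.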

Other observations

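Among rows that were not the most abundant under their symbol, SLC38A3 comp12313_c1, of a glutamine carrier, rose by 1.21 on the log2 scale (adjusted p = 0.024, edgeR). It was named after its value was seen.

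The deposited pathway terms were read after the values were seen. Of 58 tested components placed in valine, leucine and isoleucine degradation, 1 rose, 1 fell and 56 did not pass with edgeR, with a median log2 fold change of -0.03; the Ppm1k rows are not among them. Of 61 tested components of arginine and proline metabolism other than the Prodh rows, 5 rose and 2 fell (median 0.09). Of 32 in glycine, serine and threonine metabolism other than TDH, 1 rose and 1 fell (median 0.02), and of 114 with the term mitochondrial matrix outside the 8 rows, 4 rose and 2 fell (median -0.08). Over all components tested 4.56% rose and 1.80% fell.

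The supplied gene table of the species lists ppm1ka and ppm1kb, tdh and tdh2, slc43a2a and slc43a2b, and prodhb beside prodh2, in the RefSeq annotation of HZAU_Pvac_v1. No sequence ties the assembled rows to them, so which row belongs to which gene is not known here.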
